A study of Mus musculus with 5 samples.

Results

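Translation initiation factors are the proteins that bring the ribosome to the start of a messenger RNA, and their genes were compared here between mammary glands of control mice and of mice that carried an inducible cyclin D1 transgene. The members were all genes whose symbol begins with Eif followed by a digit from 1 to 6, without the Eif2ak kinases and the old Eif2c names for Argonaute genes. Only probe sets annotated with 1 gene symbol were used, and where a gene had several, the brightest by its mean across mice stood for it. This gave 45 genes out of 19938, from 54 probe sets out of 21789. A further 10 probe sets that name an initiation factor together with another gene were not used, and Eif1, Eif2s1, Eif3g and Eif4g1 were not analysed here.

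Total RNA of the mammary gland was hybridised to 1 Affymetrix whole-transcript array per mouse. The 2 control mice carried the MMTV-rtTA transgene alone. The 3 cyclin D1 mice carried rtTA together with the cyclin D1 transgene (rtTA/CCND1 in the labels). All were FvB/N females aged 8 weeks, so rtTA, a doxycycline-dependent transactivator driven by the mouse mammary tumour virus promoter, was common to both groups. The treatment text lists 7 days of doxycycline for a KE mutant of CCND1 only, and whether the controls were treated is not stated. The design text calls the mice separate animals.

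In initiation, the initiator methionyl-tRNA is carried to the small ribosomal subunit by eIF2 bound to GTP, with eIF1, eIF1A, eIF3 and eIF5 on the same subunit. The cap-binding protein eIF4E, the scaffold eIF4G and the helicase eIF4A form the complex that recruits the messenger RNA, and eIF4E-binding proteins block it. The guanine nucleotide exchange factor eIF2B reloads eIF2 with GTP, and eIF5B joins the large subunit. A secretory tissue such as the mammary gland relies on this machinery for milk protein synthesis.

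The arrays differed in range before any gene was considered. A log2 value of 5 was exceeded by 1.53% and 3.57% of all genes on control arrays 1 and 2, and by 8.01% to 10.6% on the cyclin D1 arrays. The members followed this pattern. Control 1 had 5 of the 45 members above a log2 value of 5 and control 2 had 13, against 18, 21 and 19 on cyclin D1 arrays 1, 2 and 3. The SD across the 45 members was 1.07 and 1.42 on the control arrays and 1.88 to 1.95 on the cyclin D1 arrays. For this reason the differences the results turn on are also given after a second quantile normalization of the genes across the 5 arrays, called renormalized. The mean of 1027 olfactory receptor genes on each array (1.97 to 2.52) served as a rough floor, since no detection calls were used.

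Of the 45 initiation factor genes, 11 rose in cyclin D1 glands and 0 fell, at an adjusted p under 0.05 in a limma fit over all genes. The genes that rose were Eif1ax, Eif2s2, Eif2s3x, Eif3c, Eif3h, Eif4a1, Eif4a2, Eif4b, Eif4e, Eif4g2 and Eif5. Over all genes 5.38% passed as higher and 0.687% as lower. The median log2 difference, cyclin D1 minus control, was 0.65 over the 45 genes and -0.05 over all genes. The 3 cyclin D1 values lay above both controls in 27 members, below both in 2 and overlapped the controls in 16. The shares of all genes with such separation were 22.4% above and 22.6% below.

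The calls lay among the bright members. Of the 45 members, 22 belonged to the 10% of genes with the highest mean expression, and all 11 calls lay among these 22. In that brightest decile 36.0% of all genes passed as higher and the median difference was 1.59, against 1.81 for the 22 members. Of the 23 members outside it 0 passed, where 1.98% of all genes did. Separation above both controls was seen in 18 of the 22 bright members and in 82.2% of all genes of that decile. After renormalization 0 of the 45 members passed in either direction, beside 0.256% of all genes higher and 0.105% lower. At an unadjusted p under 0.05 there were 17 of the 45, and 3736 of the 19938 genes. The members' median difference was then 0.17, with 27 positive and 18 negative, and that of the 11 genes that rose was 0.56. The calls also depended on single mice. With control 1, cyclin D1 replicate 1 or cyclin D1 replicate 2 left out, 0 members passed in limma, as did 0 of all genes in either direction. At an unadjusted p under 0.05 there were 20, 18 and 18 members and 4973, 3568 and 3491 of all genes. The members' median without control 1 was 0.39. Without cyclin D1 replicate 3 only Eif2s2 and Eif4a2 passed. Without control 2, 14 members passed, 8 of them among the 11, and the median was 1.05.

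**Figure D1:**
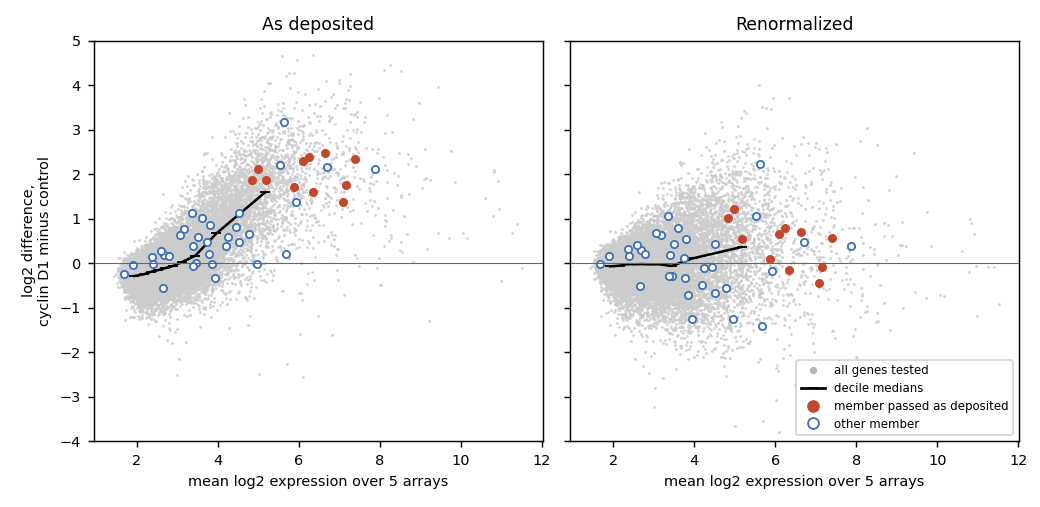
Log2 difference, cyclin D1 minus control, against mean log2 expression over the 5 arrays, for all 19938 genes (grey points), the 45 initiation factor genes (circles, filled for the 11 that passed as deposited) and the median of each decile of expression (black line); left as deposited, right renormalized. The 11 filled circles all lie at the bright end, where the black line reaches 1.59 as deposited, and 8 of the 11 lie above 0 on the right.

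**Figure D2:**
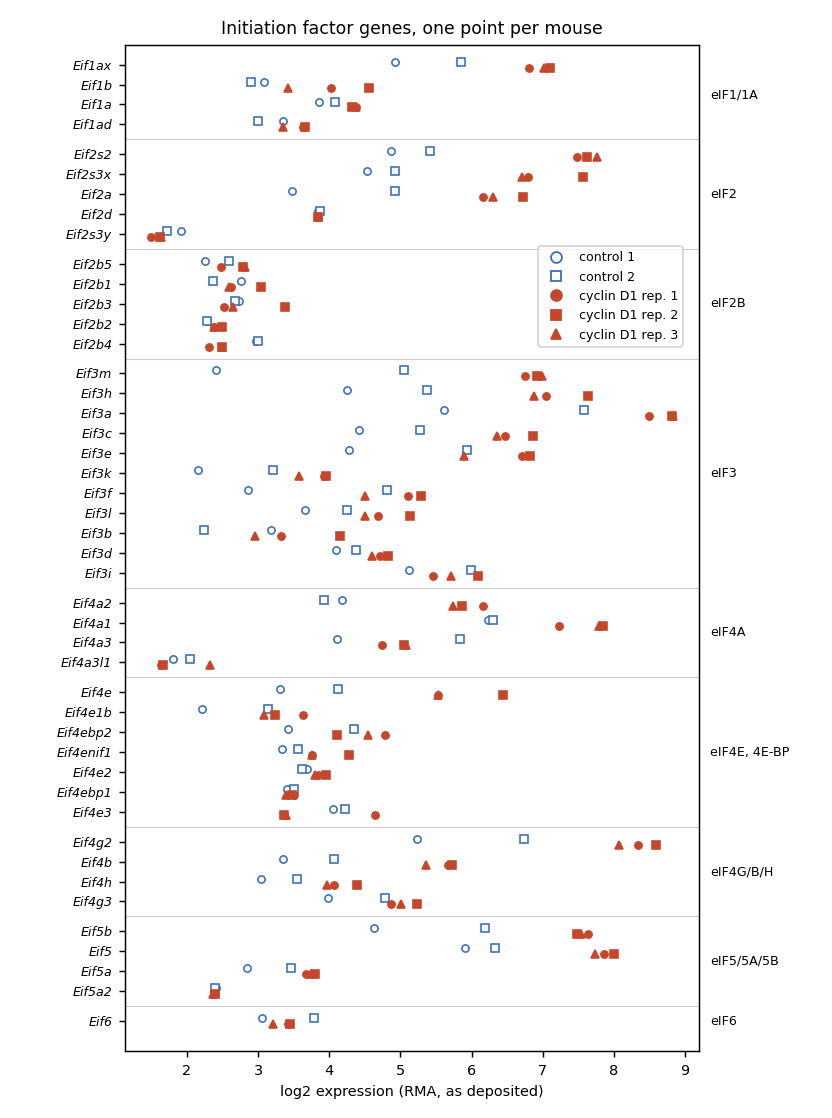
Log2 expression of each initiation factor gene, 1 point per mouse, grouped by factor; open blue symbols are the 2 controls and filled red symbols the 3 cyclin D1 mice. Members above a log2 value of 6 in cyclin D1 glands are mostly separated from the controls, whereas the eIF2B genes stay between 2.26 and 3.37 in all mice.

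Of the 3 measured subunit genes of eIF2, the tRNA-carrying factor, 2 rose. Eif2s2, which encodes its beta subunit, stood at 4.87 and 5.41 on the control arrays and at 7.48, 7.63 and 7.77 in the cyclin D1 glands. No cyclin D1 value came near the controls. The log2 difference was 2.48 (SE 0.21, limma adjusted p = 0.0165), a 5.60-fold rise, and 0.71 after renormalization. These values are of its brighter probe set, and which locus each of its probe sets reads was not checked. The dimmer Eif2s2 probe set differed by 1.15 and did not pass (limma adjusted p = 0.0995 over all probe sets). Eif2s3x, the X-linked gene of the gamma subunit, averaged 4.72 ± 0.28 (SD, n = 2) in controls and 7.02 ± 0.47 (SD, n = 3) with cyclin D1, and rose 4.92-fold (limma adjusted p = 0.0253), with 0.65 on the log2 scale after renormalization. Its Y-linked counterpart Eif2s3y lay between 1.49 and 1.92 on the 5 arrays, below the olfactory receptor mean of every array, and the labels give all mice as female. Eif2a and Eif2d encode separate tRNA-binding factors and are not eIF2 subunits. Eif2a read 3.48 and 4.93 in the controls and 6.17 to 6.72 in cyclin D1 glands. The log2 difference was 2.20 and did not pass (SE 0.45, limma adjusted p = 0.0553), with 1.05 after renormalization. Eif2d read 3.84 to 3.87 in all mice.

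The factors eIF1 and eIF1A set the accuracy of start codon choice. Of the 4 members whose symbols begin with Eif1, Eif1ax rose. Eif1ax, the X-linked eIF1A gene, was at 4.92 and 5.86 on the control arrays and at 6.81, 7.10 and 7.01 in cyclin D1 glands. The groups did not overlap, and the difference was 1.59 (log2, SE 0.30, limma adjusted p = 0.0454). It was 1.12 without control 1, and its sign turned to -0.15 after renormalization. Eif1b read 3.08 and 2.90 in the controls and 3.42 to 4.56 in cyclin D1 glands, a difference of 1.01 (SE 0.34, limma adjusted p = 0.143) and of 0.78 after renormalization. Eif1a and Eif1ad differed by 0.39 and 0.37, neither passing, and Eif1a was at -0.48 after renormalization.

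The 5 genes of eIF2B, the exchange factor, were dim and 0 of them passed. Their values ran from 2.26 to 3.37 over all mice, and both control values of Eif2b2 lay at or below the olfactory receptor mean. Eif2b4, the delta subunit gene, was the member with the smallest p of the group and pointed down. It read 2.98 and 3.00 in the controls and 2.30, 2.49 and 2.49 in cyclin D1 glands, so every cyclin D1 value was below both controls. The difference was -0.56 (SE 0.13, limma adjusted p = 0.0732), and -0.50 after renormalization. Eif2b5, the catalytic epsilon subunit gene, differed by 0.27 (SE 0.18, limma adjusted p = 0.391), with overlapping groups and 1 control at the floor. The differences of Eif2b1, Eif2b2 and Eif2b3 were 0.19, 0.14 and 0.15.

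The scaffold eIF3, the largest initiation factor, was represented by 11 genes. All 11 had positive differences, with a median of 1.13, and 2 of them rose. All but Eif3b and Eif3k belonged to the brightest decile, where 1904 of 1994 genes had positive differences (8834 of 19938 over all deciles). The median in that decile was 1.59, and 36.0% of its genes passed as higher. Eif3h was at 4.25 and 5.37 on the control arrays and at 7.05, 7.64 and 6.87 in cyclin D1 glands, a difference of 2.38 (SE 0.40, limma adjusted p = 0.0368). Eif3c, of the core of the complex, averaged 4.85 ± 0.61 (SD, n = 2) in controls and 6.56 ± 0.26 (SD, n = 3) with cyclin D1, and rose 3.28-fold (limma adjusted p = 0.0413). Both rises were smaller without control 1, at 1.82 and 1.28, and after renormalization, at 0.78 and 0.09. With control 1 left out before renormalization, Eif3c was at -0.05.

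Several other eIF3 genes had a low control 1. Eif3m read 2.41 in control 1, below the olfactory receptor mean of that array, and 5.04 in control 2, against 6.76, 6.92 and 7.00 in cyclin D1 glands. Its difference of 3.16, the highest of all members, therefore had an SE of 0.74 and did not pass (limma adjusted p = 0.0718), and it was 2.23 after renormalization. The dimmer Eif3m probe set differed by 0.64 (SE 0.24) and did not pass (limma adjusted p = 0.169 over all probe sets). Which locus each Eif3m probe set reads was not checked. Eif3a, the largest subunit, was the brightest of the 45 genes on the cyclin D1 arrays, at 8.50, 8.82 and 8.83, with 5.61 and 7.58 in the controls. Its difference was 2.12 (limma adjusted p = 0.0929) and 0.38 after renormalization. Eif3e stood at 4.28 and 5.93 on the control arrays and at 6.71, 6.82 and 5.90 in cyclin D1 glands. Control 2 thus exceeded cyclin D1 replicate 3, and the difference of 1.37 did not pass (SE 0.55, limma adjusted p = 0.193). It was 0.55 without control 1 and -0.17 after renormalization. Eif3b, Eif3d, Eif3f, Eif3k and Eif3l differed by 0.48 to 1.13 without passing. Eif3i differed least, by 0.20, with 5.12 and 5.99 in the controls and 5.46 to 6.09 in cyclin D1 glands, and its renormalized value of -1.42 was the lowest of the 45. By sign, 7 of the 11 eIF3 genes were positive and 4 negative after renormalization.

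Among the RNA helicases of the eIF4A type, the cap-complex pair Eif4a1 and Eif4a2 rose. Eif4a2 stood at 4.18 and 3.93 on the control arrays and at 6.16, 5.87 and 5.74 in cyclin D1 glands. The spread within each group was small beside the difference of 1.87 (SE 0.18, limma adjusted p = 0.0165). Renormalized, it differed by 0.53 and did not pass (adjusted p = 0.437), but with control 1 left out before renormalization it differed by 1.19 and passed (limma adjusted p = 0.0434). Eif4a1 read 6.22 and 6.30 in the controls and 7.23, 7.85 and 7.79 in cyclin D1 glands, a difference of 1.36 (SE 0.23, limma adjusted p = 0.0356) that turned to -0.45 after renormalization. Its 2 other probe sets differed by 1.98, which passed, and by 1.48, which did not (limma adjusted p = 0.0270 and 0.0691 over all probe sets).

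Eif4a3 encodes a helicase of the exon junction complex, which marks spliced messenger RNA. It read 4.11 and 5.84 in the controls and 4.75, 5.05 and 5.07 in cyclin D1 glands, so the cyclin D1 values fell between the controls. The difference of -0.02 had an SE of 0.51 (limma adjusted p = 0.982). It was -0.89 without control 1 and 0.84 without control 2, and with control 1 left out before renormalization it was -2.05 and passed as lower (adjusted p = 0.0292). Its copy Eif4a3l1 did not exceed the olfactory receptor mean on 4 of the 5 arrays.

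The promoters of the helicase pair are shown because both genes rose and their upstream sequences hold different sets of the motifs searched. The sequences are from RefSeq on GRCm38.p6, the 250 bases before the annotated start, read 5′ to 3′ on the gene's strand. Capitals mark an E-box, spelled CACGTG. They also mark the core of ETS-family sites, spelled CGGAAG, and the CCAAT box. A TATA motif spelled TATAAA was searched too, each on both strands, and no matches overlapped. The first lies at chr11:69672424-69672673 on the minus strand and the second at chr16:23107218-23107467 on the plus strand.
Eif4a1: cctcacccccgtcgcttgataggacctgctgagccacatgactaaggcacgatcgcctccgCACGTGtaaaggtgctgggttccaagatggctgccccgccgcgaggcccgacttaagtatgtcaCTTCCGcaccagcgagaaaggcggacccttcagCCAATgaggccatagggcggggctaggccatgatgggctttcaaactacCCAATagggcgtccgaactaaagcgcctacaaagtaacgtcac
Eif4a2: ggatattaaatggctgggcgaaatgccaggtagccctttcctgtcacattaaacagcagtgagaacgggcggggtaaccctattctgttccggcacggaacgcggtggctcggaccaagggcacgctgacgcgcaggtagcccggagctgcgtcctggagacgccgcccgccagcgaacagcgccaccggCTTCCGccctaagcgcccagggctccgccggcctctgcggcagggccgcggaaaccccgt
Eif4a1 held 4 such matches, an E-box 189 bases before the start, an ETS core at 125 and CCAAT boxes at 92 and 43. Eif4a2 held 1, an ETS core 60 bases before the start. Promoters were listed for 35 of the 45 members, and 18 of the 35 (51.4%) held an ETS core, against 15.3% of 27025 genes with a listed promoter. An E-box was found in 8 members (22.9%) and in 6.86% of all genes, a CCAAT box in 12 members (34.3%) and in 37.5%, and the TATA motif in 3 (8.57%) and 14.3%. Of the 9 genes that rose and had a listed promoter, 4 held an ETS core (Eif1ax, Eif3c, Eif4a1 and Eif4a2). A gene counted if any of its listed starts held the motif, and the genes compared were not matched for expression level. A match is a sequence description, and binding was not measured.

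The cap-binding protein gene Eif4e rose by the brightest of its 3 probe sets, whereas 0 of the other 6 genes of its group passed. Its brightest probe set (10599855) read 3.31 and 4.13 in the controls and 5.52, 6.45 and 5.52 in cyclin D1 glands. All 3 cyclin D1 values were above both controls, by a difference of 2.11 (SE 0.39, limma adjusted p = 0.0447). The renormalized difference was 1.22, the highest of the 11 genes that rose, and did not pass (adjusted p = 0.178). The other probe sets of Eif4e gave other values and did not pass, and which locus each probe set reads was not checked. Probe set 10496485 differed by 0.97 (SE 0.22, limma adjusted p = 0.0638 over all probe sets), and probe set 10496490 by -0.40 (SE 0.24, adjusted p = 0.326). The mean of all 3 probe sets differed by 0.89 and did not pass (adjusted p = 0.0756).

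RefSeq lists 2 starts for Eif4e, and the 250 bases before the second hold 2 E-boxes. Windows of 30 bases around both are shown with the E-box in capitals, since CACGTG is the site known for MYC and related factors. They lie at chr3:138527028-138527057 and chr3:138527192-138527221 on the plus strand of GRCm38.p6, 228 and 64 bases before that start.
Eif4e distal: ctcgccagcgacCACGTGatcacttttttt
Eif4e proximal: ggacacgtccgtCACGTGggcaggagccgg
Of the 9 genes that rose and had a listed promoter, Eif4a1 and Eif4e held an E-box. Eif4e counts here by its brightest probe set alone, and that this probe set reads the locus of the promoter shown was not checked.

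Neither gene of an eIF4E-binding protein passed. Eif4ebp1, whose product competes with eIF4G for eIF4E, read 3.41 and 3.51 in the controls and 3.50, 3.47 and 3.38 in cyclin D1 glands. The groups overlapped, and the difference of -0.003 had a 95% confidence interval of -0.33 to 0.33 (limma adjusted p = 0.992); it was -0.29 after renormalization. Eif4ebp2 differed by 0.59 with overlapping groups, and by -0.11 after renormalization. Eif4enif1, which carries eIF4E into the nucleus, differed by 0.48 (SE 0.22, limma adjusted p = 0.231). Of the eIF4E relatives, Eif4e2 differed by 0.21 and Eif4e3 by -0.34, with -0.34 and -1.25 after renormalization. Eif4e3 read 4.65 in cyclin D1 replicate 1 but 3.36 and 3.39 in the other two. The oocyte-type Eif4e1b gave 0.64 and -0.13 by its 2 probe sets, neither passing. Whether Eif4e differed from its binding proteins in response was not tested.

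**Figure D3:**
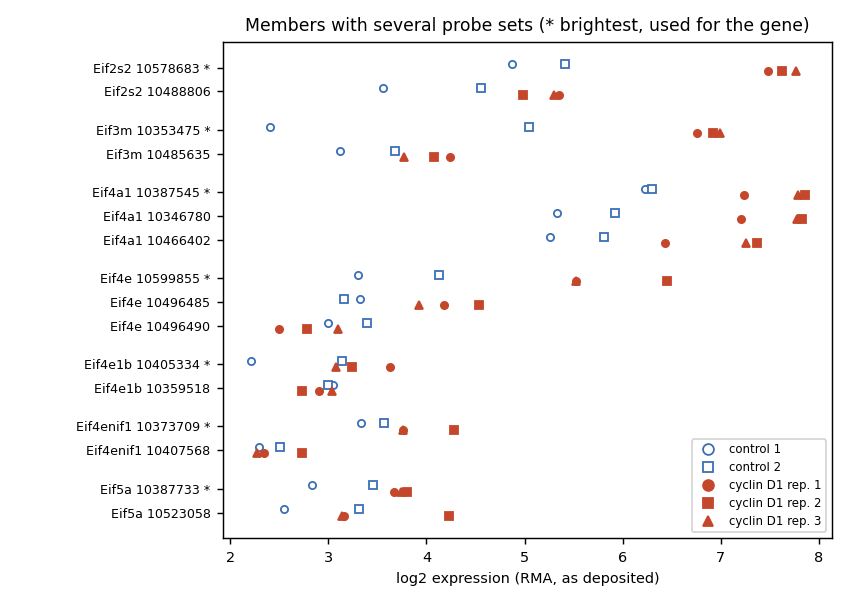
Log2 expression of the 7 members with more than 1 probe set, 1 row per probe set and 1 point per mouse; open blue symbols are controls, filled red symbols cyclin D1 mice, and a star marks the brightest probe set, which stood for the gene. The 3 Eif4a1 probe sets all have cyclin D1 values above the controls, whereas for Eif4e the brightest shows a difference of 2.11 and the dimmest one of -0.40.

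Probe sets also differed for other members. The 2 probe sets of Eif2s2 differed by 2.48 and 1.15, and those of Eif3m by 3.16 and 0.64, the dimmer one being lower in each case. Only the brighter Eif2s2 probe set passed. For Eif5a the pair gave 0.59 and 0.57, and for Eif4enif1 0.48 and 0.05.

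Of the cap-complex scaffold genes and helicase cofactors, Eif4b and Eif4g2 rose. Eif4b, the cofactor that stimulates eIF4A, read 3.35 and 4.07 in the controls and 5.67, 5.72 and 5.36 in cyclin D1 glands, and rose 3.66-fold (limma adjusted p = 0.0264). It was 1.02 on the log2 scale after renormalization, against 1.87 as deposited. Eif4g2, an eIF4G relative that lacks the eIF4E-binding region, stood at 5.23 and 6.74 on the control arrays and at 8.34, 8.59 and 8.07 in cyclin D1 glands. Its difference of 2.35 (SE 0.46) passed narrowly (limma adjusted p = 0.0499), was 1.59 without control 1 and 0.56 after renormalization, and did not pass with a robust prior. The second eIF4A cofactor gene, Eif4h, differed by 0.85 (adjusted p = 0.0884) and the scaffold gene Eif4g3 by 0.65, with -0.55 after renormalization for the latter.

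Eif5, the GTPase-activating protein of eIF2, rose from 5.90 and 6.33 in the controls to 7.86, 8.00 and 7.73 in cyclin D1 glands. The difference was 1.75 (SE 0.18, limma adjusted p = 0.0178) as deposited and -0.09 after renormalization. Eif5b, the subunit-joining GTPase gene, read 4.63 and 6.19 in the controls and 7.64, 7.49 and 7.54 in cyclin D1 glands. The cyclin D1 mice were close together and the controls far apart, and the difference of 2.15 did not pass (SE 0.45, limma adjusted p = 0.0580) and was 0.47 after renormalization. Eif5a, the factor modified by hypusine, stood at 2.84 and 3.46 against 3.67, 3.80 and 3.74, a difference of 0.59 (limma adjusted p = 0.162) that was 0.28 without control 1 and 0.42 after renormalization. Eif5a2 read 2.37 to 2.41 in all mice. Eif6, which keeps the ribosomal subunits apart, overlapped between groups. It read 3.06 and 3.79 in the controls and 3.41, 3.44 and 3.21 in cyclin D1 glands, a difference of -0.07 (SE 0.25, limma adjusted p = 0.878) and of -0.28 after renormalization.

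**Figure D4:**
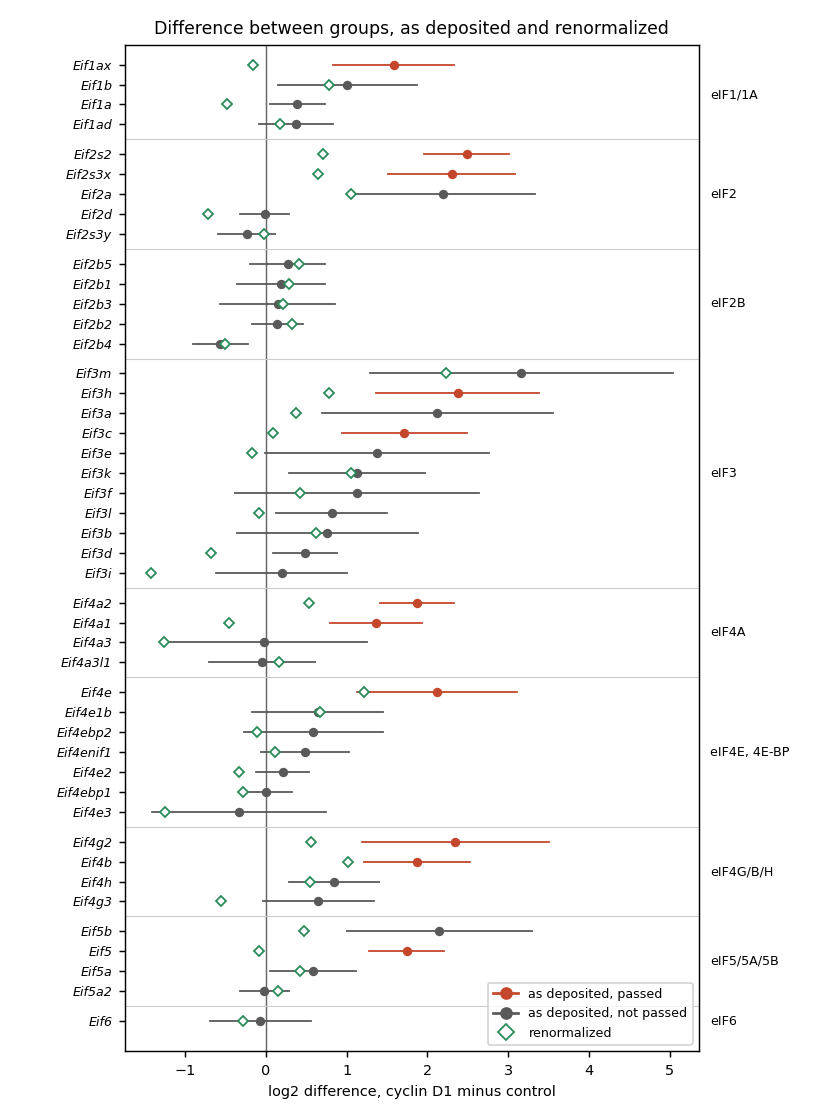
Log2 difference, cyclin D1 minus control, of each initiation factor gene with its 95% confidence interval from limma (circles, red where it passed, not adjusted for multiple tests) and the renormalized difference (open diamonds), grouped by factor. The 11 red circles lie between 1.36 and 2.48, while their diamonds lie between -0.45 and 1.22.

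Other genes of the translation pathway were taken from 4 lists. Of 43 measured genes, 9 rose and 0 fell, with a median difference of 0.83, and 1 passed after renormalization. All 9 lay among the 20 of the 43 that belonged to the brightest decile, where 36.0% of all genes passed as higher (5.38% over all deciles). Among 13 elongation, termination and recycling genes 4 rose. Gspt1, which encodes release factor eRF3, read 3.60 and 4.65 in the controls and 7.96, 8.42 and 7.73 in cyclin D1 glands, a difference of 3.91 (SE 0.37, limma adjusted p = 0.0165) and of 2.62 after renormalization (adjusted p = 0.0537). Abce1, the ribosome recycling ATPase gene, read 3.20 and 4.31 against 7.12, 7.55 and 7.42, with 3.61 as deposited and 2.58 after renormalization. Etf1, the release factor eRF1 gene, rose by 1.76, against 0.28 after renormalization. Eef1e1, of the multi-synthetase complex, rose by 1.95, against 0.86.

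Of 9 poly(A)-binding and cap-complex partner genes, Ddx3x and Larp1 rose. Ddx3x, an RNA helicase gene, read 4.44 and 5.45 in the controls and 8.80, 8.84 and 8.26 in cyclin D1 glands. Its difference was 3.69 (SE 0.36, limma adjusted p = 0.0165), and it was the gene that passed after renormalization, at 2.06 (adjusted p = 0.0434). Larp1, which binds messenger RNAs of the translation machinery, rose by 1.22 as deposited and was at -0.02 after renormalization. Denr differed by 1.26 (limma adjusted p = 0.0501) and by 0.44 after renormalization.

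Of 12 genes of mTORC1 and MNK signalling, Rheb, the GTPase that activates mTORC1, rose by 3.36 (limma adjusted p = 0.0179; 2.58 renormalized) and Pdcd4, an eIF4A inhibitor gene, by 2.87 (adjusted p = 0.0312; 1.28 renormalized). Deptor differed by 0.58 (adjusted p = 0.0695; 0.41 renormalized), and Mtor itself by 0.04. Of 9 genes of the eIF2 kinases and the phosphatase that reverses them, the catalytic subunit gene Ppp1cb rose by 2.20 (limma adjusted p = 0.0165), against 0.59 after renormalization (adjusted p = 0.410). Eif2ak2, the kinase activated by double-stranded RNA, differed by 2.12 (adjusted p = 0.0751; 1.48 renormalized) and the regulatory subunit gene Ppp1r15b by 1.13 (adjusted p = 0.0686; 0.30 renormalized).

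Some epithelial markers rose as well. Of 9 luminal and alveolar markers 3 rose (Epcam, Elf5 and Csn3), and their summed log2 level was 44.4 to 49.0 in the controls and 61.1 to 66.0 in cyclin D1 glands. Of 5 basal markers Acta2 rose, by 2.48, while Krt14 and Mylk differed by -0.10 and -0.11, and the sums of the 5 were 16.3 to 16.9 against 19.2 to 20.7. Epcam, Elf5, Csn3 and Acta2 all belonged to the brightest decile. In that decile 36.0% of all genes passed as higher and 82.2% lay above both controls in all cyclin D1 mice. All marker sums given here are of values as deposited. After renormalization no marker of either list passed in limma, with Epcam, Elf5, Csn3 and Acta2 at 1.54, 2.58, 1.14 and 0.92 (adjusted p = 0.0630, 0.0630, 0.0541 and 0.177). The 7 adipocyte markers overlapped, at 34.8 to 36.5 against 32.3 to 40.8, as did the 5 fibroblast markers, at 20.0 to 23.9 against 22.7 to 24.7, and 0 of either passed. Sums of 4 lymphocyte markers also overlapped, at 12.3 to 14.0 against 12.0 to 15.5, and those of 4 endothelial markers met, at 12.5 to 13.84 against 13.83 to 16.5. Sums of 4 macrophage markers were 11.7 to 11.9 against 12.5 to 16.8, and those of 4 skeletal muscle markers 12.3 to 12.5 against 11.4 to 11.6. Of these macrophage and muscle markers 0 passed. Over all genes, 22.4% lay above both controls in all cyclin D1 mice and 22.6% below. No marker lay at or below the olfactory receptor mean on all 5 arrays. In whole glands more cells of a type and more RNA per cell cannot be told apart, and the part of cell composition in the members' differences was not tested.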

How the data were processed

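The authors deposited 1 log2 value for each probe set and array, computed by RMA in Affymetrix Expression Console 1.1 per the submitters' processing notes. Which background option was set, and whether further arrays entered the normalization, was not given in the sources used here. That the scale is log2 follows from its range, 0.83 to 12.9. Without raw intensities or detection calls, the number of arrays limits the precision. Probe sets were named by the platform annotation (1621 with several symbols and 12146 with none were left out), and all 45 members' Entrez identifiers were in the GRCm38.p6 RefSeq gene table. Positions of the probe sets in the genome were not checked, so a probe set was not shown to read the locus of the gene it names.

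Groups came from sample titles. limma 3.58.1 in R 4.3.3 (lmFit, eBayes, 3 residual and 2.39 prior degrees of freedom) was fitted to all genes, two-sided, with Benjamini-Hochberg adjustment over all 19938 genes and a threshold of 0.05; the fit was tested on simulated data. The members, the lists and the tests were chosen with earlier results of these data known. Genes named with full statistics are, in each factor group, those that passed and the 2 with the smallest p, a preset list of well known factors, members whose probe sets differ in sign, and the 3 smallest p in each pathway list; the remaining names were chosen after their values were seen, to account for all members. Alternatives covered scaling, the variance prior, array weights, dim genes, probe set choice, a replicate block and each array left out.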

Additional observations from a re-analysis of the deposited data

How the results depend on the processing

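The members' median difference was positive under all 15 alternatives. Counts of members that rose and fell, and of all genes that rose and fell, were 0, 0, 51 and 21 when quantile-normalized again, 4, 0, 622 and 185 with an intensity trend, 4, 0, 263 and 4 with array weights, and 14, 0, 1457 and 56 with dim genes left out, against 11, 0, 1072 and 137. The members' median was 0.17 when quantile-normalized again and 1.01 with dim genes left out. With single arrays left out, members that rose ranged from 0 to 14, all genes that rose from 0 to 1365, all genes that fell from 0 to 1063, and the members' median from 0.39 to 1.05. An alternative chosen after seeing the data, quantile normalization without control 1, gave 1 member higher (Eif4a2), 2 lower (Eif3i and Eif4a3), 555 and 894 genes, and a median of 0.045.

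Median centring, a robust prior, the mean of probe sets and every probe set left 10 to 13 members higher. The replicate number as a block gave 10 members higher, 9 of them among the 11, with 1137 genes higher and 10 lower. The numbers are not stated to pair mice, and deviations of same-numbered arrays from their group means correlated at -0.026 and 0.126. With 2 controls the control deviations mirror each other, so these correlations cannot tell whether mice were paired.

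Signs turned for Eif1ax (-0.15), Eif3e (-0.17), Eif4a1 (-0.45), Eif5 (-0.091) and Larp1 (-0.025) when quantile-normalized again, and for Eif1ax (-0.17), Eif3c (-0.053) and Eif3e (-0.73) when this was done without control 1. Among genes near 0, they turned with median centring for Eif4a3 (0.048), Eif4ebp1 (0.068) and Eif6 (0.0023), with array weights for Eif4ebp1 (0.0165), and with the block for Eif4ebp1 (0.032) and Eif6 (0.0065). With single arrays left out, Eif4a3 ranged from -0.89 to 0.84, Eif4ebp1 from -0.053 to 0.048 and Eif6 from -0.43 to 0.30. The cause was not tested.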

Other observations

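Some members carried exactly equal deposited values on several arrays. Eif2d read 3.835499 on 4 of the 5 arrays and Eif5a2 read 2.390356 on 3, and Eif2b2, Eif2b4, Eif4e and Eif4enif1 each had a pair of equal values. Such ties occurred in 6 of the 45 members (13.3%) and in 3966 of all 19938 genes (19.9%), with ties of 3 or more arrays in 4.44% and 4.89%. For Eif4e the tie was between cyclin D1 replicates 1 and 3, both at 5.520817.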
